A study of Rattus norvegicus with 6 samples.

Results

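The genes described here encode 9 receptor subunits for factors that keep motor neurons alive: the GDNF receptors Ret, Gfra1, Gfra2 and Gfra3, the neurotrophin receptors Ngfr, Ntrk2 and Ntrk3, and the receptors Lifr and Cntfr for LIF and CNTF. They were chosen by gene symbol, each from the transcript clusters that the array's annotation gives to that single gene. All 9 were measured, each by 1 cluster, among 14506 genes measured in this way. A transcript cluster is the set of probes placed along 1 gene, which the array summarises as 1 value.

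Primary motor neuron cultures from rat embryos of embryonic day 13.5 were kept for 2 days in vitro and then treated for 2 h with 1 microM camptothecin (3 arrays) or with an equal volume of its solvent DMSO (3 arrays). Camptothecin is a plant alkaloid that holds topoisomerase 1 on DNA in the middle of its cutting cycle. The comparison asks which RNA levels differ after short exposure to this drug. Each treatment has 3 biological replicates by label, with no word on what kept one culture apart from another; p-values here measure only sample-to-sample spread, which may be technical. How motor neurons were isolated, and whether trophic factors were in the medium, is not given in the sources used here.

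Ligands of the GDNF family bind a GFRα co-receptor, held in the membrane by a lipid anchor, and the pair then activates the receptor tyrosine kinase RET. GDNF is bound mainly by GFRα1, neurturin by GFRα2 and artemin by GFRα3. The neurotrophins use another pair of receptor types: the TRK kinases, of which TRKB (Ntrk2) binds BDNF and TRKC (Ntrk3) binds NT-3, and the p75 receptor (Ngfr), a member of the tumour necrosis factor receptor family that binds all neurotrophins and their precursors. CNTF binds CNTFRα (Cntfr), which recruits LIFR (Lifr) and the shared subunit gp130 (Il6st) and signals through Janus kinases and STAT3. All of these receptors have been studied as survival receptors of embryonic spinal motor neurons.

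The median log2 value of an array was 6.31 to 6.33 for camptothecin and 6.22 to 6.28 for DMSO, and arrays of a treatment correlated with Pearson's r of 0.992 to 0.995. A cluster is called dim below when its mean over the 6 arrays lies under 6.28, the median of all cluster means. Several defining motor neuron markers were dim in these cultures. Isl1 averaged 5.50 ± 0.23 with camptothecin and 5.77 ± 0.14 with DMSO (log2, SD, n = 3 each), and the vesicular acetylcholine transporter Slc18a3 averaged 6.05 ± 0.08 with camptothecin and 6.16 ± 0.08 with DMSO. Of 12 measured motor neuron markers 7 were dim, while none of 8 spinal interneuron markers was. For comparison, 8472 of the 14506 genes were not dim. Lhx3, Foxp1, Nefh, Nefm and Nefl were the motor neuron markers that were not dim. Nefm and Nefl had DMSO means of 10.57 and 10.24. The markers Mnx1 and Chat were not measured by the rule used here. Dim signal on an array does not show that a gene is silent, and levels of different genes do not measure shares of cells. In such a bulk sample fewer cells of a type and less RNA per cell cannot be told apart, so no change below is assigned to motor neurons alone.

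Among the 9 receptor genes, Gfra2 and Ntrk3 fell after 2 h of camptothecin and no gene rose. Gfra2 fell to 62% of its DMSO level and Ntrk3 to 72.2%. The other 7 had changes between -0.22 and 0.13 on the log2 scale and did not pass the test, which was limma's test over all 29214 clusters with Benjamini-Hochberg adjustment and a threshold of 0.05. Falls made up 9.35% of all genes measured by the same rule and rises 11.3% (7.91% and 10.1% of all clusters), and a count of 2 falls in 9 genes is too small to set the group apart from that background. At an unadjusted p under 0.05 there were 6 lower and 0 higher receptor genes. By that rule 13.3% of all genes were lower, and at least the 11.3% that rose were higher.

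**Figure D1:**
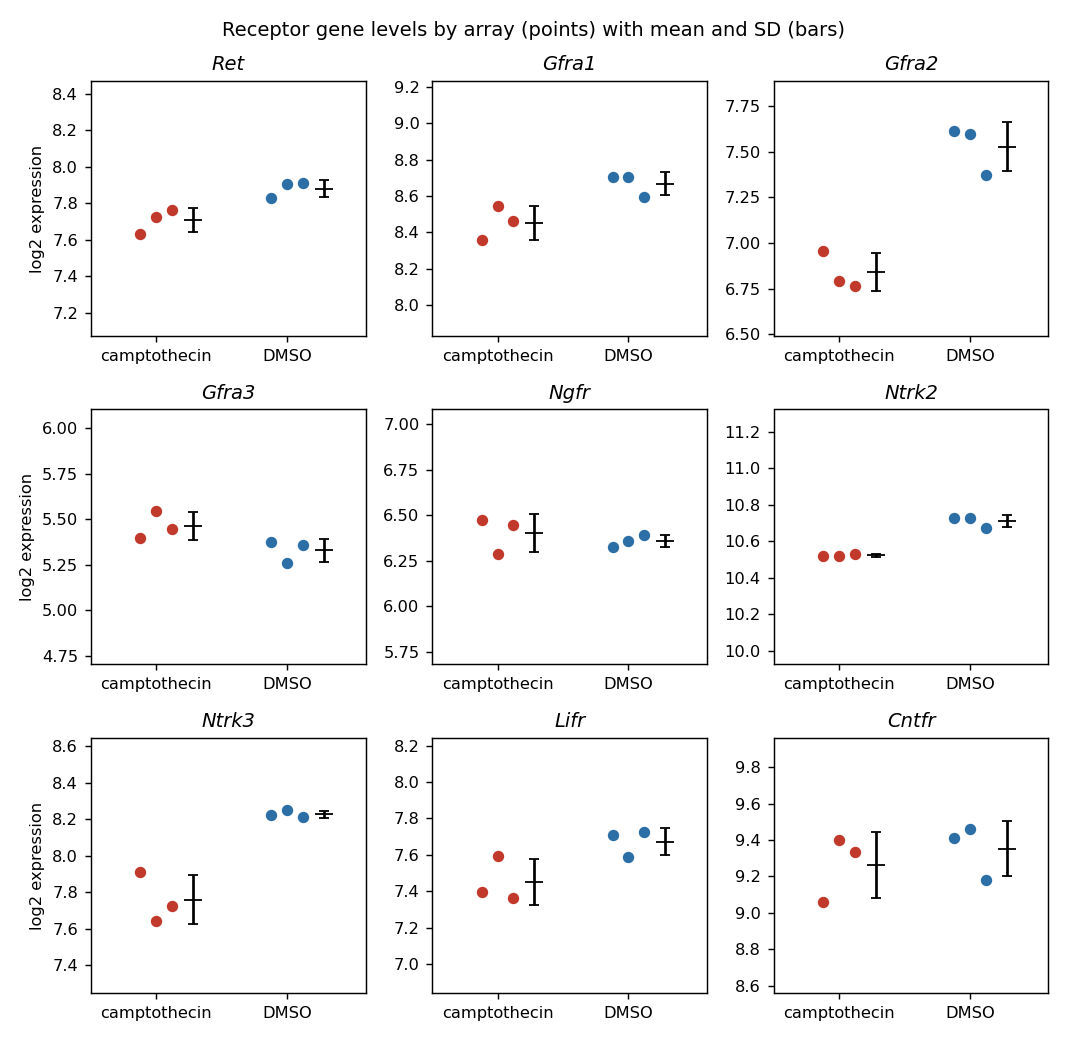
Log2 expression of the 9 receptor genes on each array, with camptothecin arrays (red) left of DMSO arrays (blue) and black bars for the mean and SD of 3 arrays. Every vertical axis covers the same log2 range around its own gene, and Gfra2 and Ntrk3 show the widest gaps between treatments, with means of 6.84 against 7.53 and 7.76 against 8.23.

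Gfra2, the co-receptor for neurturin, measured 6.96, 6.79 and 6.77 on the camptothecin arrays, against 7.61, 7.60 and 7.37 on the DMSO arrays (log2 expression). All 3 camptothecin arrays lay below all 3 DMSO arrays, with a gap between the groups wider than the range inside either of them. The log2 change was -0.69 (SE 0.09, 95% interval -0.91 to -0.47, adjusted p = 0.00406 by limma). It passed the threshold in each of 16 alternative fits, with changes of -0.94 to -0.65. Of the 14506 genes, 421 had a lower change than Gfra2.

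Gfra1, the co-receptor for GDNF itself, measured 8.36, 8.54 and 8.46 with camptothecin, against 8.71, 8.71 and 8.59 with DMSO. These groups did not overlap either, although the highest camptothecin array came within 0.1 of the lowest DMSO array. The change was -0.22 (SE 0.08, 95% interval -0.40 to -0.03, adjusted p = 0.103 by limma) and did not pass.

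Ret, the kinase subunit shared by the whole GDNF family, measured 7.63, 7.73 and 7.76 with camptothecin, against 7.83, 7.90 and 7.91 with DMSO. Again every camptothecin array was below every DMSO array. The change of -0.17 (95% interval -0.34 to -0.01, adjusted p = 0.133 by limma) did not pass. The cluster covers the transcripts of the gene together, so the long and short forms of RET, which differ at their tail, are not separated.

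Gfra3, the artemin co-receptor best known from sensory and sympathetic neurons, was the dim member of the group. Its arrays measured 5.40, 5.55 and 5.45 with camptothecin, against 5.37, 5.26 and 5.36 with DMSO. It was the receptor gene with the highest change, 0.13 (95% interval -0.04 to 0.31, adjusted p = 0.261 by limma), which did not pass and whose interval holds 0.

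The balance between GDNF co-receptors was compared within each array, where the log2 level of one gene is subtracted from that of another and only the change of this difference between treatments is read. Gfra2 minus Gfra1 averaged -1.61 ± 0.19 with camptothecin and -1.14 ± 0.07 with DMSO (SD, n = 3 each), a difference of -0.47. The 3 camptothecin arrays (-1.40, -1.75 and -1.69) all lay below the 3 DMSO arrays (-1.09, -1.11 and -1.22). The two-sided exact permutation p was 0.1, the smallest that 3 arrays against 3 allow (0.2 adjusted over the 4 pairs compared). For Ret minus Gfra1 the difference was 0.04, with overlapping groups and an exact permutation p of 0.7 (0.7 adjusted over the 4 pairs).

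Ntrk3, the NT-3 receptor kinase, measured 7.91, 7.64 and 7.72 with camptothecin, against 8.22, 8.25 and 8.21 with DMSO. The DMSO arrays lay within 0.1 of each other, and every camptothecin array was below them. The log2 change was -0.47 (SE 0.08, 95% interval -0.67 to -0.27, adjusted p = 0.0109 by limma), and 820 genes had a lower one. It passed in 15 of 16 alternative fits and missed only the stricter threshold of 0.01.

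Ntrk2, the BDNF receptor kinase, measured 10.52, 10.52 and 10.53 with camptothecin, against 10.73, 10.73 and 10.67 with DMSO. The groups were tight and did not overlap. Its change was small, -0.19 (SE 0.06, 95% interval -0.33 to -0.04), and did not pass with an adjusted p of 0.077 by limma. It was past the threshold in 6 of 16 alternative fits, with an adjusted p of 0.0427 after another quantile normalization and 0.0228 without dim clusters. Truncated TRKB, which lacks the kinase and is abundant in glia, is not separated from the full-length form by a single cluster.

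Ngfr, the p75 receptor, measured 6.47, 6.28 and 6.45 with camptothecin, against 6.33, 6.36 and 6.39 with DMSO. The DMSO values lay inside the range of the camptothecin values. The change was 0.04 (95% interval -0.13 to 0.22, adjusted p = 0.737 by limma), and it was -0.02 with arrays centred on their median. Its mean over the arrays, 6.38, was close to the median of all clusters.

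Ntrk2 minus Ntrk3 within an array averaged 2.76 ± 0.14 with camptothecin and 2.48 ± 0.02 with DMSO, a difference of 0.28. Its camptothecin values of 2.61, 2.87 and 2.81 were all above the DMSO values of 2.51, 2.48 and 2.46. The exact permutation p was again 0.1, the smallest possible (0.2 adjusted over the 4 pairs).

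Lifr, the signalling subunit shared by LIF and CNTF, measured 7.40, 7.59 and 7.36 with camptothecin, against 7.71, 7.59 and 7.72 with DMSO. The groups overlapped at 1 array each. The change was -0.22 (SE 0.09, 95% interval -0.43 to -0.02, adjusted p = 0.13 by limma). It passed in 1 of 16 alternative fits, that with ribosomal centring.

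Cntfr, the CNTF-binding subunit, measured 9.06, 9.40 and 9.33 with camptothecin, against 9.41, 9.46 and 9.18 with DMSO. Its spread between arrays of a treatment was the widest of the group, with an SD of 0.18 for camptothecin and 0.15 for DMSO. The change was -0.09 (95% interval -0.37 to 0.19, adjusted p = 0.666 by limma), and it was 0.01 without camptothecin replicate 1. Lifr minus Cntfr differed by -0.13 between treatments, with overlapping groups and an exact permutation p of 0.5 (0.667 adjusted over the 4 pairs).

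Across the 9 genes, all 3 camptothecin arrays lay below all 3 DMSO arrays for 5 (Ret, Gfra1, Gfra2, Ntrk2 and Ntrk3) and above them for 1 (Gfra3), where 15.5% and 27.1% of all genes did so. The median change of the 9 was -0.19, beside 0.06 over all genes. Changes were below 0 for 7 of them (Cntfr only with camptothecin replicate 1 kept) and for 37.5% of all genes. The count of falls depended on the processing: it was 5 of 8 when dim clusters were left out, 6 with arrays centred on ribosomal protein genes and 1 at a threshold of 0.01. The share of all tested genes that fell moved with it, to 18.6%, 29.3% and 5.61% under these settings in the same order, against 9.35% as reported. No receptor gene rose under them, where 28.2%, 2.5% and 3.04% of all tested genes did.

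**Figure D2:**
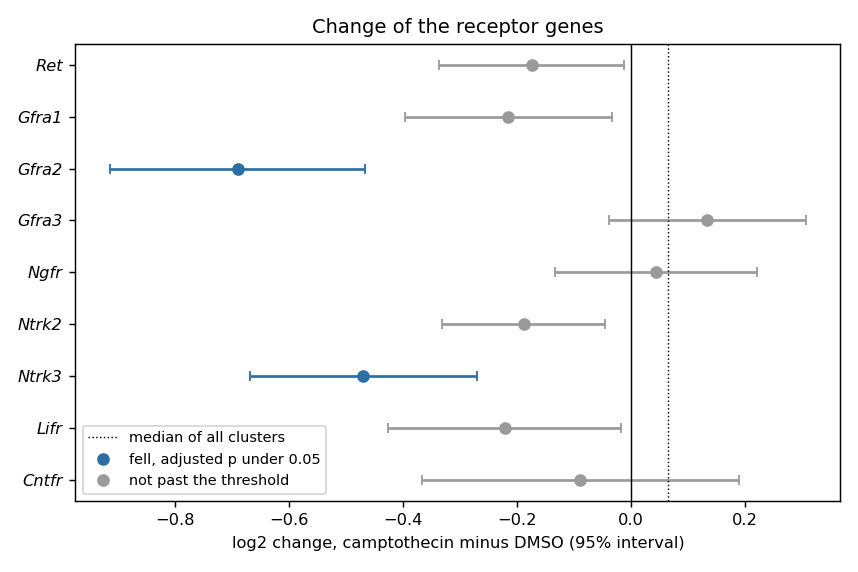
Log2 change (camptothecin minus DMSO) of each receptor gene with its 95% interval from limma, in blue for the genes that fell and in grey for those that did not pass. Gfra2 (-0.69) and Ntrk3 (-0.47) lie apart from the rest, which run from -0.22 to 0.13, and the dotted line marks the median of all clusters at 0.07.

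The receptor genes differ widely in genomic span, taken from the RefSeq annotation of the rat assembly GRCr8. Spans were 387 kb for Ntrk3, 315 kb for Ntrk2, 232 kb for Gfra1, 91.9 kb for Gfra2, 68.6 kb for Lifr, 42.2 kb for Ret, 38.0 kb for Cntfr, 28.3 kb for Gfra3 and 18.2 kb for Ngfr. Both receptor genes under 30 kb had changes above 0 as deposited (-0.11 for Gfra3 and -0.20 for Ngfr with ribosomal centring, which moves the change of every gene alike by -0.25), and the 7 longer ones had changes below 0, that of Cntfr not without camptothecin replicate 1. Among all genes, 40.3% of those of 300 kb or more fell, 33.3% of those of 100 to 300 kb, 16.2% of those of 30 to 100 kb and 3.67% of those of 10 to 30 kb. The change of Gfra2 was lower than those of Ntrk3, Ntrk2 and Gfra1, which have longer spans. The median change of genes of 300 kb or more was -0.20, beside -0.19 for Ntrk2 and -0.47 for Ntrk3. For genes of 100 to 300 kb it was -0.12, beside -0.22 for Gfra1. For genes of 30 to 100 kb it was 0.00, beside -0.69 for Gfra2, -0.22 for Lifr, -0.17 for Ret and -0.09 for Cntfr. For genes of 10 to 30 kb it was 0.11, beside 0.13 for Gfra3 and 0.04 for Ngfr. The part of span in these changes was not tested.

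**Figure D3:**
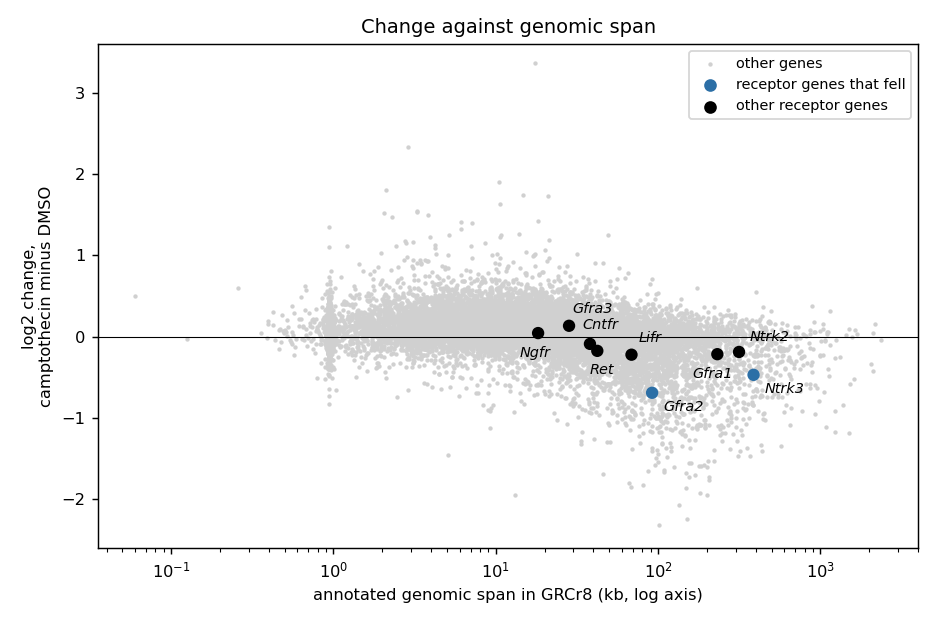
Log2 change (camptothecin minus DMSO) against annotated genomic span in kb on a log axis, for all genes with a span (grey) and the receptor genes (blue for those that fell, black for the others). Ntrk3 at 387 kb and Gfra2 at 91.9 kb lie below the other receptor genes.

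Levels of the 3 genes most like Gfra2 over the 6 arrays, by Pearson's r among 14306 named genes, were those of Eed, a subunit of the Polycomb repressive complex PRC2, Zcchc7, a zinc-knuckle protein, and Unc13c, a presynaptic priming protein (r = 0.997 each). An r over 0.95 was common, reached by 655 genes. Eed averaged 8.55 ± 0.05 with camptothecin and 9.12 ± 0.10 with DMSO (log2, SD, n = 3 each), and it fell (change -0.57, adjusted p = 0.00372 by limma). A gene picked for likeness to Gfra2 over these arrays shares its gap between treatments, so this fall is no separate result.

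Other genes of these pathways were taken from 9 lists holding 100 genes by role, of which 83 were measured. In all, 18 fell and 12 rose, 21.7% and 14.5% of the 83, beside 9.35% and 11.3% of all genes. The median change of the 83 was 0.06, equal to that of all genes. All falls except that of Bdnf were in the lists of signalling and feedback genes.

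Among neurotrophin ligands, Bdnf, which binds TRKB, fell to 40.9% of its DMSO level. It measured 7.05, 7.41 and 7.33 with camptothecin, against 8.57, 8.64 and 8.44 with DMSO, a change of -1.29 (SE 0.11, adjusted p = 0.000523 by limma). Its lowest DMSO array stood over 1 log2 unit above its highest camptothecin array, and 58 of the 14506 genes had a lower change. The TRKC ligand Ntf3 (-0.09) and the TRKB ligand Ntf4 (0.16) were dim and did not pass.

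None of the 4 GDNF family ligands passed limma's threshold, and 0 of 4 had an unadjusted p under 0.05 in either direction. At that unadjusted level 13.3% of all genes were lower and at least 11.3% higher. Pspn, which encodes persephin, had the largest change (0.09, adjusted p = 0.409 by limma), and that of Gdnf was 0.07 with overlapping groups. With ribosomal centring 1 of the 4 fell, a share near the 29.3% of all genes. Among further GDNF receptors and co-receptors, Sdc3, a heparan sulfate proteoglycan that binds GDNF, rose by 0.29 (SE 0.07, adjusted p = 0.0295 by limma), while the GDF15 receptor Gfral (-0.28), the persephin co-receptor Gfra4 (0.08) and the adhesion molecule Ncam1 (0.09) did not pass. The rise of Sdc3 was lost in 8 of 9 other fits.

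Cntf, the ligand of CNTFRα, rose 1.52-fold. It measured 6.81, 7.02 and 6.96 with camptothecin, against 6.49, 6.21 and 6.29 with DMSO, a change of 0.60 (SE 0.10, adjusted p = 0.00764 by limma). The groups did not overlap. In GRCr8 the gene next to Cntf is Zfp91, and read-through transcripts joining these genes are known in human, so a share of the signal from such transcripts was not tested. Lif, a dim gene that encodes another ligand of LIFR, rose by 0.34 (SE 0.09, adjusted p = 0.0396 by limma), a call lost in 8 of 9 other fits. The other 5 measured ligands of this family did not pass.

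Gp130 partners showed no call: 0 of 4 genes passed limma's threshold and 0 of 4 had an unadjusted p under 0.05. At that unadjusted level 13.3% of all genes were lower and at least 11.3% higher. Il6r, the IL-6 receptor and the one with the largest change, had a change of 0.14 (adjusted p = 0.194 by limma), and Il6st, which encodes gp130 itself, one of 0.13 (adjusted p = 0.222 by limma). With ribosomal centring 2 of the 4 fell, beside 29.3% of all genes. Among partners of p75 and other neurotrophin receptors, Traf6, an adaptor that p75 recruits, rose by 0.42 (SE 0.09, adjusted p = 0.0256 by limma). That call was lost in 6 of 9 other fits, and the other 7 genes of the list did not pass.

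In JAK and STAT signalling, through which LIFR and gp130 act, 5 of 11 genes fell and 1 rose. The shares of all genes that fell and rose were 9.35% and 11.3%. Pias1, an inhibitor of activated STAT proteins, fell to 48.4% of its DMSO level (change -1.05, SE 0.06, adjusted p = 0.000133 by limma). Jak2 measured 8.67, 8.74 and 8.68 with camptothecin, against 9.60, 9.43 and 9.48 with DMSO (change -0.81, SE 0.07, adjusted p = 0.000592 by limma), with no overlap. Stat3, the main STAT of the CNTF receptor, measured 7.76, 8.10 and 8.07 with camptothecin, against 8.52, 8.63 and 8.48 with DMSO (change -0.57, SE 0.11, adjusted p = 0.0122 by limma). Stat5b, a dim gene, fell (change -0.43, adjusted p = 0.0432 by limma), a call lost with any 1 array left out. The fall of Jak1 (-0.29) was lost in 5 of 9 other fits, and the rise of Pias3 (0.30) in all 9.

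Of 31 adaptors and kinases between RET or TRK receptors and the ERK and AKT pathways, 9 fell and 3 rose. Of all genes, 9.35% fell and 11.3% rose. This list held the deepest falls. The largest were both SOS exchange factors, which load RAS with GTP. Sos2 measured 7.69, 7.63 and 7.56 with camptothecin, against 9.20, 9.08 and 9.05 with DMSO, a change of -1.48 (SE 0.07, adjusted p = 5.6e-05 by limma). Sos1 measured 8.97, 9.05 and 8.99 with camptothecin, against 10.29, 10.33 and 10.32 with DMSO, a change of -1.31 (SE 0.06, adjusted p = 4.15e-05 by limma). In both genes the distance between treatments was many times the range among arrays of a treatment.

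Pik3cb, a catalytic subunit of PI3 kinase, fell to 40.4% of its DMSO level (change -1.31, SE 0.09, adjusted p = 0.000208 by limma), and the RAF kinase Braf to 43.4% (change -1.21, SE 0.08, adjusted p = 0.000142 by limma). Further falls were the docking proteins Gab2 (-1.12), Gab1 (-0.56) and Frs2 (-0.52), the kinase Map2k1 (-0.52) and the adaptor Crk (-0.35). The call of Crk was lost in 5 of 9 other fits and that of Map2k1 in 2. The 3 rises were those of the docking protein Dok4 (0.48), the GTPase Nras (0.43) and the kinase Araf (0.25); those of Dok4 and Araf were lost in 8 and 9 of 9 other fits. With arrays centred on ribosomal protein genes 14 of the 31 fell and 0 rose, where 29.3% of all genes fell and 2.5% rose.

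Genes that ERK signalling induces or that restrain it went both ways. Of these 11 genes 4 rose and 3 fell, beside 11.3% and 9.35% of all genes. Spry1, a feedback inhibitor of receptor kinases, rose by 0.59 (SE 0.08, adjusted p = 0.00394 by limma), with 8.36, 8.55 and 8.39 on camptothecin arrays, against 7.86, 7.90 and 7.76 on DMSO arrays. The related inhibitors Spred2 (-1.17, SE 0.13) and Spred1 (-0.98, SE 0.08) fell, as did Etv5 (-0.50, SE 0.13), a transcription factor induced by GDNF in other cells (adjusted p = 0.00182, 0.000333 and 0.0416 by limma, in that order). The call of Etv5 was lost in 5 of the 6 fits that left out 1 array. The rises of Spry2, Spry4 and Dusp6 were lost in 8, 7 and 3 of 9 other fits, while that of Spry1 held in all 9.

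**Figure D4:**
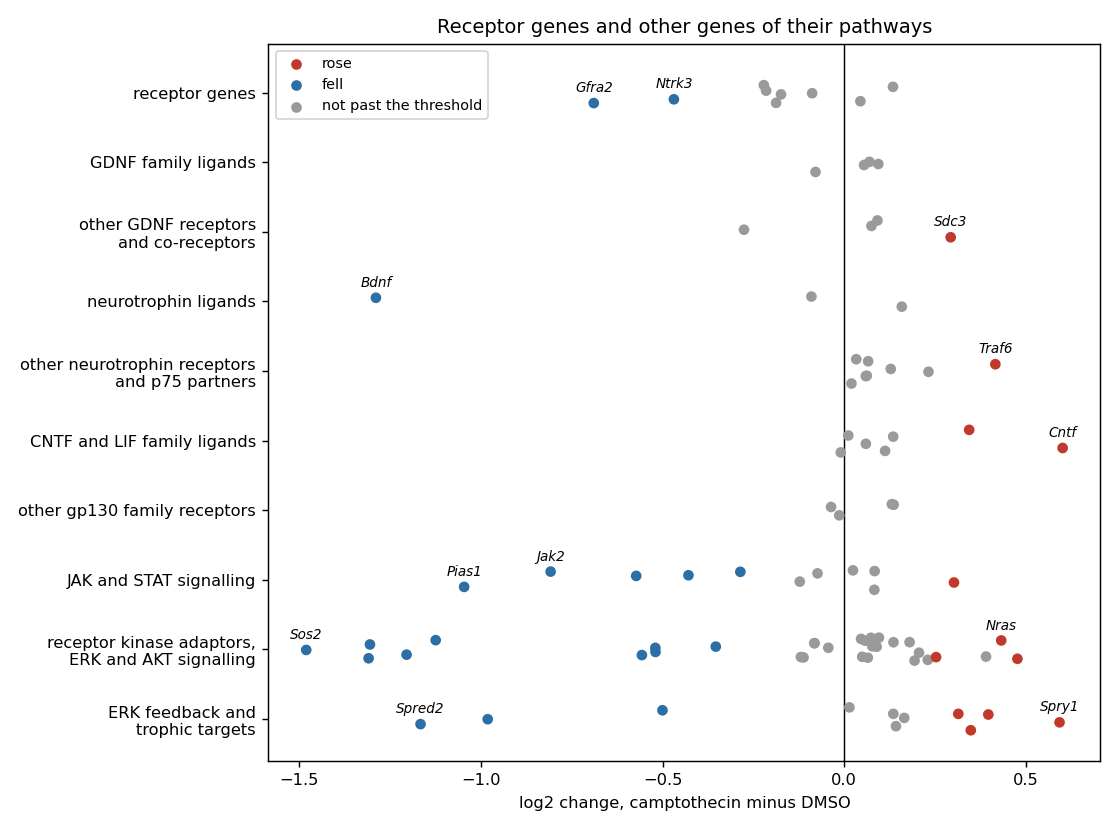
Log2 change (camptothecin minus DMSO) of the 9 receptor genes and the 83 other pathway genes, with 1 row per list and 1 point per gene (red rose, blue fell, grey did not pass). Among the points lower than Gfra2 (-0.69) are Sos2 (-1.48), Sos1 and Pik3cb (-1.31 each), Bdnf (-1.29), Braf (-1.21) and Spred2 (-1.17).

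The pathway genes that fell had a median span of 79.4 kb and those that rose one of 10.04 kb, beside 83.3 kb and 10.7 kb for all genes that fell and rose. Of the 18 falls 13, and of the 12 rises 2 (Cntf and Spry1), held in all of 9 other fits. These were median centring, ribosomal centring, the replicate block and leaving out each of the 6 arrays. Median and ribosomal centring moved the median change of all clusters by -0.07 and -0.25. Such shifts work against rises and not against falls, so the centring fits do not weigh both alike. Leaving out 1 array involves no such shift. In those 6 fits the rises of Pias3, Dok4 and Araf were lost in 6, and those of Sdc3, Lif and Spry2 in 5. Those of Traf6 and Spry4 were lost in 4 and that of Dusp6 in 2. Among falls, Stat5b was lost in 6, Etv5 in 5, Jak1 and Crk in 4 and Map2k1 in 2. The rise of Nras was lost only with ribosomal centring.

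Markers of cell types that such cultures could hold were set beside the result. For comparison with the counts below, 9.35% of all genes fell and 11.3% rose. Spinal interneuron markers fell in 5 of 8 genes and rose in 0. The glycine transporter Slc6a5 (-1.79) and the GABA-synthesising enzyme Gad2 (-0.99) fell most, both held in 9 of 9 other fits. The falls of Slc17a6 (-0.80) and Gad1 (-0.57) also held in 9 of 9, while that of Pax2 (-0.25) was lost in 7. The 3 that did not fall, Slc32a1 (0.23), Lhx5 (0.26) and Lhx1 (0.10), had changes above 0 and did not pass. All camptothecin arrays of Slc32a1 lay above its DMSO arrays. The mean log2 level of the 8 markers per array was 8.19 to 8.32 with camptothecin and 8.66 to 8.78 with DMSO. Sensory neuron markers rose in 1 of 7 (Drgx, 0.32, a call lost in 9 of 9 other fits) and fell in 0, with mean levels of 6.17 to 6.28 with camptothecin and 6.04 to 6.16 with DMSO. Schwann cell and oligodendrocyte markers rose in 1 of 7 (S100b, 0.34, lost in 8 of 9) and fell in 1 (Mbp, -0.48), with mean levels of 6.93 to 6.997 with camptothecin and 6.98 to 7.02 with DMSO. Astrocyte and progenitor markers fell in 1 of 10 (Pax6, -0.58), with mean levels of 8.45 to 8.58 with camptothecin and 8.49 to 8.55 with DMSO. Motor neuron markers rose in 3 of 12 (Nefh, 0.59, Nefm, 0.42, lost in 1 of 9 fits, and Prph, 0.31, lost in 9) and fell in 1 (Foxp1, -0.34, lost in 5). Changes were above 0 for 7 of the 12 and below 0 for 5. Of those below 0, Slc5a7 (-0.34), Isl1 (-0.27), Lhx4 (-0.20) and Slc18a3 (-0.11) did not pass. Mean levels of the 12 were 6.81 to 6.93 with camptothecin and 6.83 with DMSO. Fibroblast markers fell in 1 of 7 (Fn1, -0.36, lost in 2 of 9), with mean levels of 6.38 to 6.70 with camptothecin and 6.47 to 6.54 with DMSO. Muscle markers rose in 1 of 10 (Acta1, 0.32, lost in 8 of 9) and fell in 1 (Pax3, -0.67, lost in 1), with mean levels of 5.91 to 5.95 with camptothecin and 5.91 to 5.99 with DMSO. Endothelial, blood and microglial markers gave 0 calls in 11 by limma, with 3 higher and 0 lower at an unadjusted p under 0.05. At that unadjusted level 13.3% of all genes were lower and at least 11.3% higher. Mean levels of these 11 markers were 5.85 to 5.93 with camptothecin and 5.79 to 5.83 with DMSO. The part of interneuron RNA in the falls of Gfra2 and Ntrk3 was not tested.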

How the data were processed

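RNA of 6 cultures was hybridised to Affymetrix Rat Gene 1.0 ST arrays. The deposited values are log2 expression, and the authors' tools were RMA and oligo, per the submitters' processing notes (for versions, annotation and build: not given in the sources used here). RMA scales arrays to each other, so changes are relative to the other genes of an array. The deposited values were still not on 1 distribution, with array medians of 6.31 to 6.33 for camptothecin and 6.22 to 6.28 for DMSO.

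Of 29214 clusters 15310 carried 1 gene symbol, 323 several and 13581 none. Each gene was read from its cluster with the highest mean. The deposited values were fitted unchanged with limma 3.58.1 in R 4.3.3 (lmFit, eBayes, two-sided, Benjamini-Hochberg over all clusters). Gene spans came from the GRCr8 RefSeq table, matched by gene identifier for 15279 clusters. The genes and lists were chosen with earlier results of these data known. Named from each list were up to 4 called genes with the largest change, or 1 where none passed, while other pathway genes and the markers were named after their values were seen. Precision is limited by the 3 arrays per treatment.

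The fit was tested on simulated data for this comparison, over 29214 clusters in which the called ones kept their changes and 200 others were given a set change. Of these it recovered 34% where the set log2 change was 0.25, 79% where it was 0.5 and 96.5% where it was 1. Same-numbered arrays did not deviate together (correlations of -0.08, 0.02 and 0.08), so numbers were not treated as pairs.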

Additional observations from a re-analysis of the deposited data

How the results depend on the processing

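Falls among the receptor genes numbered 2 as reported, 6 with arrays centred on ribosomal protein genes, 5 of 8 with dim clusters left out, 1 at a threshold of 0.01, and 2 to 3 in the other 13 fits; rises numbered 0 in all 16. The share of all tested genes that fell was 9.35% as reported, 29.3% with ribosomal centring, 18.6% without dim clusters and 5.61% at 0.01. Leaving out dim clusters tests fewer clusters, 0.01 is a stricter rule by construction, and ribosomal centring moves the change of every gene alike by -0.25. Why ribosomal protein genes give this shift was not tested. Ribosomal centring shifted the median change of all clusters by -0.25, and calls that were higher made up 8.2% of all calls with it, 37.2% with median centring and 56% as deposited. Gfra2 fell in all 16 fits (adjusted p from 0.000602 to 0.0205) and Ntrk3 in 15 (0.00208 to 0.0457). Ret and Gfra1 passed in 2 each, with ribosomal centring and without dim clusters. Each of the 6 fits with 1 array left out gave 2 receptor falls and 0 rises. With the replicate number as a block, 2 receptor genes fell and 0 rose, while all higher clusters numbered 1677 instead of 2937. Without camptothecin replicate 1 the change of Cntfr was 0.01. In simulated data a change of 0.25 was called in 34% of cases, so changes of that size were mostly missed there. Those cases were drawn from all clusters not called, dim ones included. The rate for the receptor genes alone was not tested.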
